A study of Mus musculus with 19 samples.

Results

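The 9 genes described here encode T-box transcription factors: Tbx1, Tbx2, Tbx3, Tbx4, Tbx5, Tbx15, Tbx18, Tbx20 and Tbx21. They were taken by name from the gene tables, which held 54532 gene rows, and all 9 names were found. The study, which asked for genes specific to the kidney, compared total RNA of 19 tissues. All came from C57BL/6J mice that the labels give as males, 8 weeks old and on a chow diet, with 1 library per tissue and no other treatment or allele. Values for 13 tissues (aorta, brain, colon, eye, heart, kidney, liver, parathyroid, gastrocnemius skeletal muscle, stomach, testis, thymus and epididymal white fat, WAT) came as FPKM. This is fragments per kilobase of a gene's mean annotated transcript length, scaled to the reads assigned to genes in each library. Levels set between genes therefore depend on the length used for each gene. Bone, brown adipose tissue (BAT), intestine, lung, skin and spleen came as read counts and were put on the FPKM scale of the 13 tissues, so levels set across the 2 tables rest on that recomputed scale. Without replicate libraries no test between tissues was possible, and every interval below is a 95% exact interval that covers counting error only.

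T-box factors share a DNA-binding domain, the T-box, and bind related DNA sequences as activators or repressors. In the embryo most are switched on in a few regions, where they take part in setting the identity of an organ or of a part of a limb. Tbx5 and Tbx20 are known for the heart, Tbx4 for the hindlimb and the lung, Tbx2 and Tbx3 as repressors in heart, lung and limb, Tbx1 for the pharyngeal region, Tbx15 and Tbx18 for the trunk and limb mesenchyme, and Tbx21 (T-bet) for T helper 1 and natural killer cells.

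Libraries held between 11135276 assigned reads (colon) and 17263334 (parathyroid). The libraries labelled kidney and eye went against the label male: Xist was at 90.9 and 97.5 FPKM and 4 Y-linked genes summed to 3 reads in each. Aorta and parathyroid had both Xist and Y-linked transcripts. Umod in kidney, Myh6 in heart, Sftpc in lung and the osteoblast genes Bglap and Ibsp in bone were highest in the library of that name, while the bone marker Col1a1 was higher in skin (6505 FPKM) than in bone (2376 FPKM). Several libraries also held markers of a second organ, and those values stand beside the results they touch. In these whole tissues, fewer cells of a type and less RNA per cell cannot be told apart.

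The RefSeq promoter table used here (GRCm38.p6) was matched for 5 of the 9 genes, Tbx1, Tbx4, Tbx18, Tbx20 and Tbx21, which are also the 5 genes that stood at least 4-fold above every other tissue among the 19. For each, the 250 bases before a RefSeq transcription start are printed 5′ to 3′ on the gene's own strand. These windows are shown because only these 5 genes had a match, and they were not chosen by tissue pattern. Capitals mark CG dinucleotides. The lines are for Tbx20 (chr9:24774304-24774553, minus strand), Tbx18 (chr9:87731261-87731510, minus), Tbx4 (chr11:85896515-85896764, plus), Tbx21 (chr11:97115332-97115581, minus) and Tbx1 (chr16:18590672-18590921, minus). Tbx1 has a second RefSeq start, whose window is not printed. The Tbx4 window lies inside the gene as the deposited table places it, so it is not upstream of that table's gene start.
Tbx20: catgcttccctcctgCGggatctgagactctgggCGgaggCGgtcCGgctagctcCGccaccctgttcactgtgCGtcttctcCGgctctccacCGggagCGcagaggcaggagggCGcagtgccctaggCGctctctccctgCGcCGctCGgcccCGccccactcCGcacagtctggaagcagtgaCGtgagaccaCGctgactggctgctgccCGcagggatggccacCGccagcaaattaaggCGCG
Tbx18: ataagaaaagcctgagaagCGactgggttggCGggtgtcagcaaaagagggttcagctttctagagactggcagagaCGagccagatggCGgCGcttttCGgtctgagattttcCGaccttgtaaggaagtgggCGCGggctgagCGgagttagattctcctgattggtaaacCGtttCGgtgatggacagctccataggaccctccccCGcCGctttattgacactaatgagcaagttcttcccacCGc
Tbx4: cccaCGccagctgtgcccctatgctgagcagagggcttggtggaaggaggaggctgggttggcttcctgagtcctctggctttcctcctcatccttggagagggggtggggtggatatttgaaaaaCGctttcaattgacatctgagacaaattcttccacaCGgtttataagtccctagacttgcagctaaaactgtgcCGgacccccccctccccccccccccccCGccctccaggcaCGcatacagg
Tbx21: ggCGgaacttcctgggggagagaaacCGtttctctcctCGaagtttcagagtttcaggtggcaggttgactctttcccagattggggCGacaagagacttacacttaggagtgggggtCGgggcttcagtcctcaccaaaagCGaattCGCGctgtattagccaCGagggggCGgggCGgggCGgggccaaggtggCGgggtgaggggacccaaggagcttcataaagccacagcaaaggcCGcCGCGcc
Tbx1: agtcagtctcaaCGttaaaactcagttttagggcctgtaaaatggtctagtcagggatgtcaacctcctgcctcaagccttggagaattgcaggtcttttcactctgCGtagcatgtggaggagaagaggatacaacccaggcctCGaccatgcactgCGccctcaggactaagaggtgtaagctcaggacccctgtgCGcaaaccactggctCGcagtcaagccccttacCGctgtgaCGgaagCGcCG

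The heart gene Tbx20 had the window richest in G and C, at 68.8% with 22 CG dinucleotides. The lung gene Tbx4 had 58.4% and 6 CG, the latter equal to the median of all 32851 RefSeq promoters (52.4% G and C, 6 CG). Tbx18 lay at 54.0% with 15 CG, Tbx21 at 60.8% with 16, and the printed Tbx1 window at 54.4% with 10. The window of the other Tbx1 start was at 67.2% with 17 CG. Both strands of each window were searched for the T-box core motif GGTGTGA, for the GATA motif AGATAA and for the TATA motif TATAAA. The T-box core motif was in none of the 5 printed windows and in 3.33% of all promoters, and the GATA motif was in none of the 5 and in 9.99% of all. The TATA motif occurred in the Tbx4 window alone, 1 time (12.4% of all promoters). The Tbx18 window lies inside D030062O11Rik, a noncoding gene on the opposite strand.

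**Figure D1:**
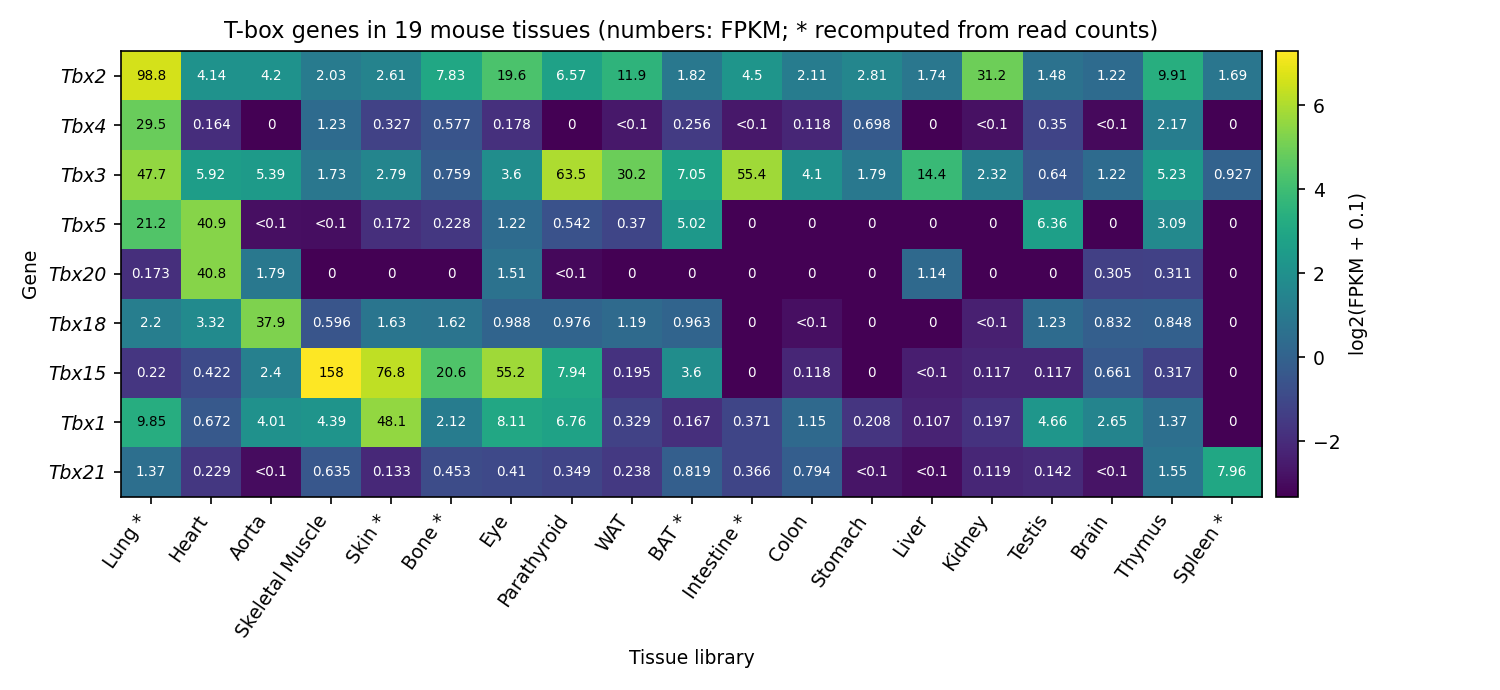
Level of the 9 T-box genes (rows) in 19 tissue libraries (columns), coloured by log2(FPKM + 0.1), with the FPKM printed in each cell. Tbx2 is above 1 FPKM in every column, while Tbx20 is near 40 FPKM in heart and at or below 1.79 FPKM elsewhere.

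Every one of the 9 genes reached 1 FPKM in some tissue, but they differed widely in breadth. Tbx2 was at 1 FPKM or more in all 19 tissues and Tbx3 in 16. Tbx1 passed that level in 11 tissues, Tbx15 and Tbx18 in 7 each, Tbx5 in 6, Tbx20 in 4, and Tbx4 and Tbx21 in 3 each. Tbx20 had no read in 11 of the libraries and Tbx5 none in 7. A gene was called enriched when its highest tissue had at least 1 FPKM and stood at least 4-fold above the next tissue, with 0.1 FPKM added to both. Among the 13 tissues 3 of the 9 genes were enriched, against 32.4% of the 26586 genes that reached 1 FPKM in some tissue. Among all 19 tissues 5 were enriched, against 28.3% of 27937 genes. The other 8 T-box genes of the mouse (T, Tbr1, Eomes, Tbx6, Tbx10, Tbx19, Tbx22 and Mga) gave no call in either comparison. Only 5 of these 8 reached 1 FPKM in some tissue and could be called.

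The heart library held a pair of T-box genes at similar FPKM. That match rests on the lengths used, 1923 bases for Tbx5 (1105 reads in heart) and 3094 for Tbx20 (1774 reads). Their deposited gene lengths are 4675 and 11997 bases. Tbx5 (ENSMUSG00000018263, chromosome 5, 119832668 to 119885219) was at 40.9 FPKM and Tbx20 (ENSMUSG00000031965, chromosome 9, 24718138 to 24774303) at 40.8 FPKM, each 42.3% of the summed FPKM of the 9 genes there. Tbx5 is a cardiac activator that is also known for forelimb outgrowth, and Tbx20 is needed in heart muscle and valves. Tbx20 was enriched in heart (0.689% of genes at 1 FPKM or more in heart were enriched there among 19 tissues), 22.8-fold above aorta (interval 18.3 to 28.8). Tbx5 was enriched in heart only among the 13 tissues (0.827% of genes), 6.43-fold above testis (5.54 to 7.49). Among the 19, lung came next at 21.2 FPKM, and heart was 1.93-fold above it (1.74 to 2.13), or 2.93-fold with size factors and 3.12-fold with the upper quartile.

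Tbx5 and Tbx20 differed in the tissues outside the heart. Tbx5 followed lung with testis (6.36 FPKM), BAT (5.02), thymus (3.09) and eye (1.22), was at 0.542 FPKM or less in 6 further tissues, and had no read in kidney, liver, stomach, brain, colon, intestine and spleen. Testis and BAT were close, 1.27-fold apart (1.03 to 1.57), and their order turned under upper quartile scaling (0.607-fold). Tbx20 stood at 1.79 FPKM in aorta, 1.51 in eye and 1.14 in liver, with aorta and eye not separable (1.18-fold, 0.855 to 1.63) except under upper quartile scaling (2.25-fold). In lung, thymus, brain and parathyroid Tbx20 was between 0.0187 and 0.311 FPKM. The remaining 11 libraries had 0 reads, for which the exact interval reaches at most 0.107 FPKM (colon).

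Markers of heart muscle were set beside these values. The 5 cardiomyocyte markers (Myh6, Tnnt2, Actn2, Nppa and Tnni3) were in lung at 0.0937 to 0.307% of their heart level, with Tbx20 at 0.424% and Tbx5 at 51.9%. In liver the same markers were at 0.00734% of heart or less, with Myh6 and Nppa at 0 reads, while Tbx20 was at 2.80% (55 reads). In BAT, Tbx5 was at 12.3% of heart and Tbx20 had no read, with Nppa at 0, Actn2 at 3.20% and the other 3 markers at 0.00441% or less. The lung markers Sftpc and Sftpb were also at 0 in BAT. In testis Tbx5 was at 15.6% of heart, with the cardiomyocyte markers between 0.00352 and 0.920%. The aorta library had Nppa at 0 reads and the other cardiomyocyte markers at up to 1.001% of heart, with Tbx20 at 4.38%. The heart library itself held the thymus markers Rag1, Dntt and Foxn1 at 5.54 to 8.86% of their thymus level, whose part in heart values was not tested.

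A list of 12 heart genes that T-box factors are known to bind or control was chosen for its heart genes, so its tissue is no independent evidence. Of the 12, 10 were highest in heart and 7 were enriched there. Over all genes at 1 FPKM or more in some tissue, 1.75% were highest in heart and 0.358% enriched there. For the list the median log2 ratio of heart to the highest other tissue was 3.43 (-3.52 over all genes). Nppa, which encodes atrial natriuretic peptide, reached 3878 FPKM in heart and 12.01 in thymus, the next tissue. Ryr2, the cardiac calcium release channel gene, was at 329 FPKM in heart and 29.8 in brain. Hcn4, a pacemaker channel gene, was at 3.15 FPKM in heart and 3.02 in brain, and the conduction gene Gja5 was highest in lung (24.7 FPKM, 19.2 in heart), and the calcium channel gene Cacna1g in brain (30.3 FPKM). Among 14 other cardiac transcription factors, 3 were highest in heart (Nkx2-5, Hand2 and Irx4) and 1, Nkx2-5, was enriched there, at 46.8 FPKM. Gata4, a partner of Tbx5 and Tbx20, was highest in stomach (129 FPKM, 58.3 in heart), and Isl1 in eye (28.3 FPKM, 0.884 in heart).

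The lung library had the highest summed T-box level as FPKM, 211 against 168 in skeletal muscle, but muscle passed it with size factors (302 against 153) and with the upper quartile (389 against 147). Lung was the one tissue with 4 of the genes above 10 FPKM. These were Tbx2 at 98.8, Tbx3 at 47.7, Tbx4 at 29.5 and Tbx5 at 21.2 FPKM. The 4 genes form linked pairs: Tbx2 (ENSMUSG00000000093, chromosome 11, 85832551 to 85841948) and Tbx4 (ENSMUSG00000000094, 85886422 to 85916097) are 44473 bases apart, and Tbx3 (ENSMUSG00000018604, chromosome 5, 119670669 to 119684724) and Tbx5 are 147943 bases apart. Both pairs are known in mouse lung mesenchyme, where they act in branching growth. In other tissues the genes of a pair had different leading tissues.

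**Figure D2:**
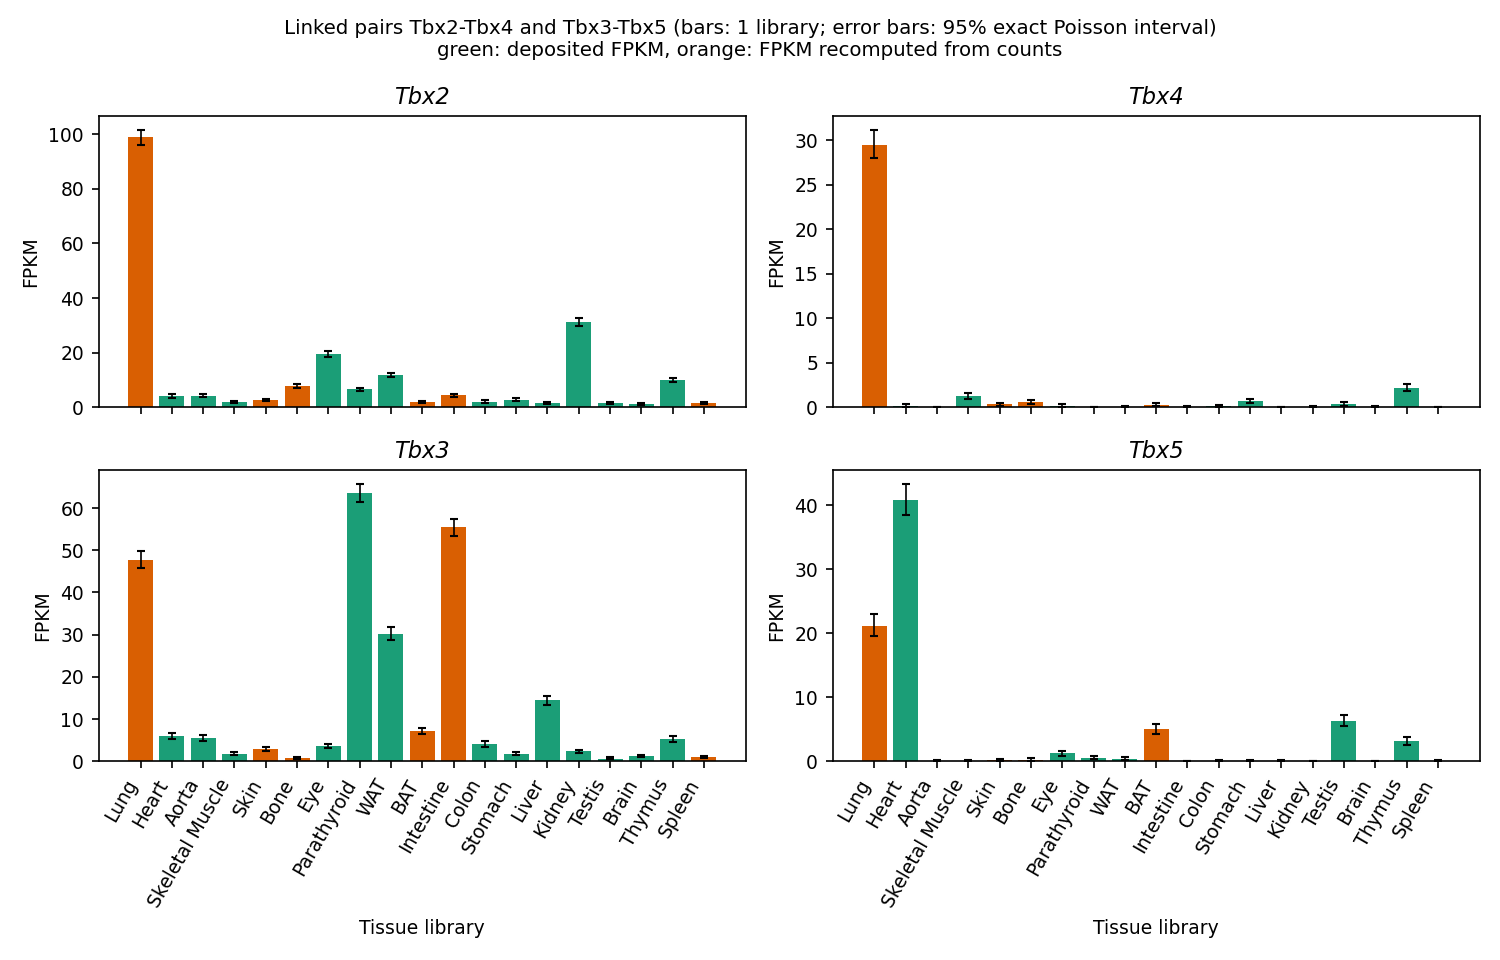
FPKM of Tbx2, Tbx4, Tbx3 and Tbx5 (y axes, linear from 0) in 19 tissue libraries, with 1 bar per library and 95% exact Poisson intervals. All 4 genes are high in lung, while kidney is high for Tbx2 alone and parathyroid and intestine for Tbx3 alone.

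Tbx4, the hindlimb and lung gene, was enriched in lung (0.895% of genes), 13.6-fold above thymus (11.2 to 16.6). Thymus was at 2.17 FPKM, skeletal muscle at 1.23, stomach at 0.698 and bone at 0.577, and no read was found in aorta, liver, parathyroid and spleen. The muscle was a hindlimb muscle, and it stood 2.13-fold above bone (1.35 to 3.46), or 4.53-fold with size factors and 5.89-fold with the upper quartile. Of the 4 lung epithelial markers Sftpc, Sftpb, Scgb1a1 and Ager, 3 had 0 reads in skeletal muscle. In the thymus library the 4 were at 5.93 to 9.80% of lung, and Tbx4, Tbx2, Tbx3 and Tbx5 at 7.37, 10.03, 10.96 and 14.6%. The brown fat markers Ucp1 and Cidea were in thymus at 14.1 and 10.1% of BAT. The part of either tissue in the thymus values was not tested. Without the thymus library, lung stood 24.0-fold above skeletal muscle. That ratio was 9.67 with size factors and 7.20 with the upper quartile, under both of which muscle was the second tissue with thymus included.

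Tbx2, a repressor, was highest in lung but not enriched, because kidney was at 31.2 FPKM (3.16-fold lower, 3.003 to 3.34). Eye at 19.6, WAT at 11.9, thymus at 9.91 and bone at 7.83 FPKM followed, and each of these neighbours in the order differed by more than counting error. The lowest levels as FPKM were in liver (1.74), spleen (1.69), testis (1.48) and brain (1.22). BAT stood 1.05-fold above liver, within counting error (0.789 to 1.39). Size factors and the upper quartile raised all liver values by 0.84 and 1.07 on the log2 scale, so the place of liver depends on scaling. In kidney Tbx2 made up 91.5% of the summed T-box level, with Tbx3 at 2.32 FPKM as the next gene. The authors' group table gave Tbx2 as 28.4 FPKM for the mean of 3 kidney libraries, which leaves 27.04 for the mean of the other 2. For Tbx3 the mean of the other 2 was 3.55 FPKM. Tbx2 in liver was 5.57% of kidney, and the kidney markers Umod and Slc34a1 were there at 6.14 and 4.99%. In eye the kidney markers had 0 reads and Tbx2 was at 62.9% of kidney.

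Tbx3, a close relative of Tbx2 and also a repressor, was the leading T-box gene in 6 tissues on the lengths used, more than any other member. That count depends on length: Tbx3 was given 3136 bases and its deposited gene length is 6624, while Tbx2 has 3626 by both. Tbx3 was at 63.5 FPKM in parathyroid, 55.4 in intestine, 47.7 in lung, 30.2 in WAT and 14.4 in liver. Parathyroid stood 1.15-fold above intestine (1.09 to 1.20), and this order turned under other scalings (0.898-fold with size factors, 0.873-fold with the upper quartile). WAT stood 2.09-fold above liver, but 1.004-fold and 0.810-fold under the same scalings. Along the gut, colon at 4.10 FPKM and stomach at 1.79 were 13.5-fold (11.4 to 16.1) and 30.9-fold (25.1 to 38.6) below intestine. Tbx3 gave 91.3% of the summed T-box level in intestine and 82.3% in liver. The parathyroid library held much thyroid RNA, with Tg at 57706 FPKM beside Pth at 7211, so the gland in which Tbx3 was high cannot be told apart. In the aorta library Tbx3 was at 8.49% of parathyroid, and 6 parathyroid and thyroid markers were at 8.45 to 9.54%.

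Noncoding genes on the opposite strand accompany Tbx3. Tbx3os1 overlaps the start of Tbx3 by 697 bases, and the 3′ end of Tbx3os2 lies 370 bases past the end of Tbx3. Over the 19 tissues log2 levels of Tbx3os1 and Tbx3 had Pearson's r = 0.86 and Spearman's rho = 0.82, and those of Tbx3os2 and Tbx3 r = 0.67 and rho = 0.52. Whether counting used strand is not given in the sources used here, so reads of the overlap cannot be assigned to either gene. The ratio nevertheless varied: Tbx3os1 was 42.3% of Tbx3 in parathyroid, 45.0% in lung and 49.5% in WAT, but 7.46% in intestine (4.13 FPKM) and 180% in skeletal muscle (3.13 FPKM). Tbx3os2 was at 17.3 FPKM in parathyroid, 6.89-fold above WAT (5.21 to 9.26), and had 0 reads in heart, liver, BAT and kidney. Near Tbx5, the noncoding gene Gm43050 lies 747 bases away and was at 12.3 FPKM in lung and 11.4 in heart (r = 0.79 with Tbx5, n = 19). The gene overlapping the start of Tbx18 by 1976 bases, D030062O11Rik, was highest in aorta at 1.30 FPKM (54 of its 95 reads, r = 0.82 with Tbx18). Reads of this overlap cannot be assigned to either gene either, and Tbx18 had 1435 reads in aorta.

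**Figure D3:**
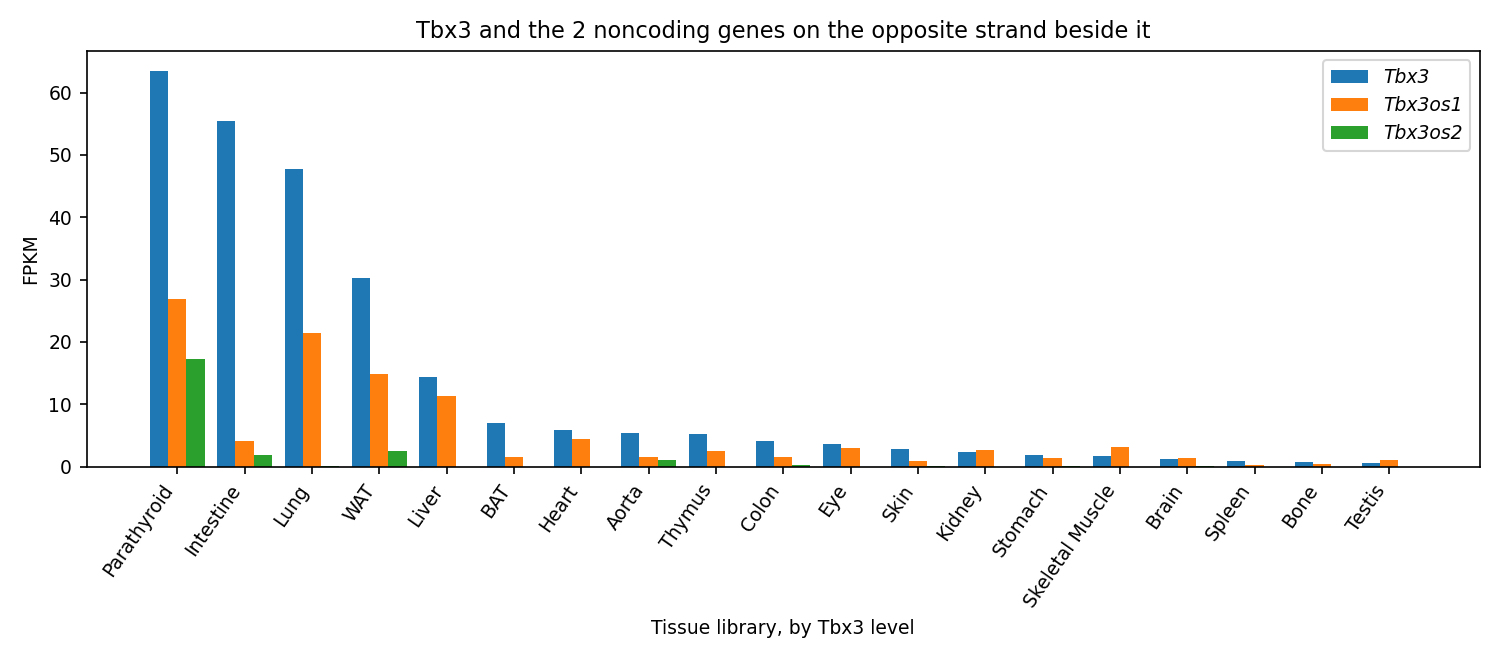
FPKM (y axis) of Tbx3 and of the noncoding opposite-strand genes Tbx3os1 and Tbx3os2 in 19 tissue libraries, ordered by Tbx3. Intestine is second for Tbx3 at 55.4 FPKM but has 4.13 FPKM of Tbx3os1, while parathyroid has 26.8 FPKM of it.

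Tbx15 and Tbx18 are related genes of the trunk and limb mesenchyme, and their highest tissues differed. Tbx15 (ENSMUSG00000027868, chromosome 3, 99240381 to 99354259), which is known for skeletal development and glycolytic muscle fibres, was at 158 FPKM in skeletal muscle. On the lengths used this was the highest value of any of the 9 genes. That ranking depends on length: Tbx15 was given 1517 bases and its deposited gene length is 3747, while Tbx2 has 3626 by both. For Tbx15 skin followed at 76.8, eye at 55.2, bone at 20.6, parathyroid at 7.94, BAT at 3.60 and aorta at 2.40 FPKM. Each step from muscle down to aorta exceeded counting error, and heart was at 0.422 FPKM, 373-fold below muscle (197 to 817), or 608-fold and 767-fold with size factors and the upper quartile. Muscle was 2.05-fold above skin (1.94 to 2.17), so Tbx15 was not enriched, although it passed the 4-fold rule with size factors (4.39-fold) and with the upper quartile (6.47-fold).

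The tissues with Tbx15 also held muscle fibre transcripts. The 5 markers Acta1, Ckm, Myh4, Myh1 and Tnnt3 had a median of 24.9% of the muscle level in skin, 5.34% in eye and 5.73% in bone, where Tbx15 was at 48.7, 35.0 and 13.1%. In parathyroid the median was 2.08% and Tbx15 5.04%, in BAT 1.87% and 2.28%, and in aorta 0.267% and 1.52%. Tbx15 lay above the markers' median and below the marker Myh1 in all 6 libraries, and the part of muscle in these values was not tested. Myh1 was at 71.3% in skin, 43.7% in eye, 27.8% in bone, 12.4% in parathyroid, 7.36% in BAT and 1.73% in aorta. Of 10 muscle progenitor and muscle factors, 7 were highest in skeletal muscle, and of the 8 that reached 1 FPKM in some tissue 5 were (2.34% of all genes at that level). Among them 1, Lbx1, was enriched (42.1 FPKM, beside 0.696% of genes enriched in muscle). The satellite cell genes Pax7 and Myf5 were at 0.910 and 0.618 FPKM in muscle. Myod1 was at 8.55 FPKM in muscle and 4.02 in skin.

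**Figure D4:**
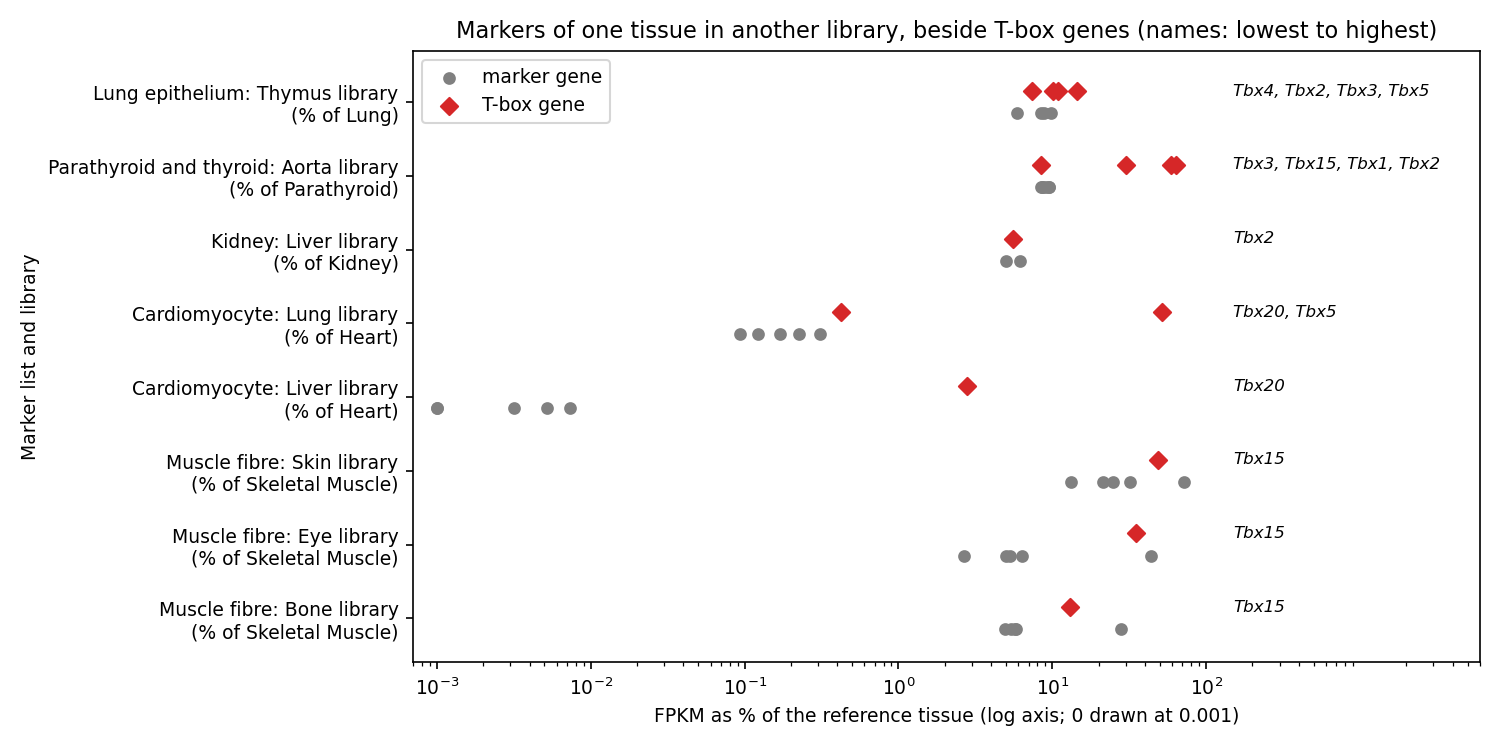
Level of marker genes (grey) and T-box genes (red) in one library as a percentage of the level in a reference tissue (log x axis), with 1 row per marker list and library. In thymus the 4 T-box genes lie at 7.37 to 14.6% beside lung markers at 5.93 to 9.80%, while in lung Tbx5 lies at 51.9% of heart with cardiomyocyte markers at 0.307% or less.

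Tbx18 (ENSMUSG00000032419, chromosome 9, 87702800 to 87731260), which marks mural cells of vessels and is known for the epicardium, sinus node and ureter, was enriched in aorta in both comparisons (1.67% of genes among 13 tissues and 1.06% among 19). Its level there was 37.9 FPKM, 11.4-fold above heart (9.47 to 13.9) and 17.2-fold above lung (13.8 to 21.7), the latter 26.6-fold with the upper quartile. Ranging from 0.596 to 1.63 FPKM, 10 further tissues followed, while kidney was at 0.0928, colon had 1 read, and liver, stomach, intestine and spleen had none. Of 5 mural cell markers 4 were highest in aorta (Pdgfrb, Rgs5, Kcnj8 and Abcc9), against 3.73% of all genes. In heart and kidney their medians were 58.5 and 10.2% of aorta, with Tbx18 at 8.75 and 0.245%. The smooth muscle genes Myh11 and Actg2 were in colon at 146 and 543 FPKM, where Tbx18 was at 0.0352 FPKM.

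Tbx1 (ENSMUSG00000009097, chromosome 16, 18580979 to 18590671), known for the pharyngeal arches and in skin for hair follicle stem cells, was enriched in skin (1.41% of genes). Skin was at 48.1 FPKM and lung at 9.85, 4.88-fold lower (4.28 to 5.60). With upper quartile scaling the ratio was 3.48 and the call was lost, as it was with the gene lengths of the authors' second table. Next came eye at 8.11, parathyroid at 6.76, testis at 4.66, skeletal muscle at 4.39 and aorta at 4.01 FPKM, and eye and parathyroid could not be separated (1.20-fold, 0.993 to 1.45), nor could testis and muscle, or muscle and aorta. Spleen had no read. In eye Tbx1 was at 16.8% of skin, and the skin markers Krt10, Krt14 and Lor were at 5.74 to 36.0%. Of 11 pharyngeal genes, 6 were highest in parathyroid (2.001% of all genes were), among them Gcm2 at 24.3 FPKM and Foxe1 at 150.02 FPKM. Within skin Tbx1 gave 36.3% of the summed T-box level and Tbx15 57.9%.

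Tbx21 (ENSMUSG00000001444, chromosome 11, 97098071 to 97115331) was the lowest of the 9 at its peak, 7.96 FPKM in spleen (1.43% of genes enriched in spleen). Thymus was at 1.55 and lung at 1.37 FPKM. The ratio of spleen to thymus was 5.15, with an interval of 3.93 to 6.84 that reaches below 4. The call was lost with a pseudocount of 1 and with upper quartile scaling. Bone stood at 0.453 FPKM and intestine at 0.366, 17.6-fold (10.9 to 30.0) and 21.7-fold (12.99 to 39.3) below spleen. T cell markers ran the other way, with Cd3e at 229 FPKM in thymus and 60.4 in spleen, while the natural killer cell receptor gene Ncr1 was at 7.90 FPKM in spleen and 0.528 in thymus. Of 19 T helper 1 and natural killer genes 11 were highest in spleen (8.67% of all genes were) and 2, Ifng and Cxcr3, were enriched there. Ifng, a known target of Tbx21, was at 2.34 FPKM in spleen and 0.422 in lung. Eomes, the related T-box gene of natural killer cells, was at 8.09 FPKM in spleen and 2.15 in brain. Among 4 factors of other T helper cells, Foxp3 was highest in spleen (4.01 FPKM, 0.940 in thymus) and Gata3 in skin (147 FPKM, 53.8 in thymus).

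The fat depots differed in T-box make-up. WAT had Tbx3 at 30.2 and Tbx2 at 11.9 FPKM against 7.05 and 1.82 in BAT, 4.28-fold (3.82 to 4.81) and 6.53-fold (5.33 to 8.05) higher. BAT had Tbx5 at 5.02 and Tbx15 at 3.60 FPKM against 0.370 and 0.195 in WAT, 13.6-fold (7.56 to 26.8) and 18.4-fold (7.60 to 58.0) higher. The directions held under both other scalings, but the sizes moved: with size factors and the upper quartile the folds were 2.56 and 1.84 for Tbx3, 3.90 and 2.81 for Tbx2, 22.7 and 31.5 for Tbx5, and 30.8 and 42.7 for Tbx15. The BAT library held muscle fibre markers at 1.46 to 7.36% of muscle, beside Tbx15 at 2.28%, and their part in the Tbx15 difference was not tested. The WAT library also held epididymal RNA, with Crisp1 at 11117 FPKM, whose part in Tbx2 and Tbx3 was not tested. A list of 12 fat depot genes was scored for BAT, although it was not limited to brown fat genes and included Hoxc8, Hoxc9, Tcf21 and Wt1. Of the 12, 2 were highest in BAT, Ebf2 (21.96 FPKM) and Lhx8 (1.59 FPKM), against 3.01% of all genes. Prdm16 and Zic1, also on the list, were not highest in BAT, and Hoxc8 was highest in WAT (40.2 FPKM). The median log2 ratio of BAT to the highest other tissue was -6.31 for this mixed list and -3.94 over all genes, so it does not describe brown fat genes.

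**Figure D5:**
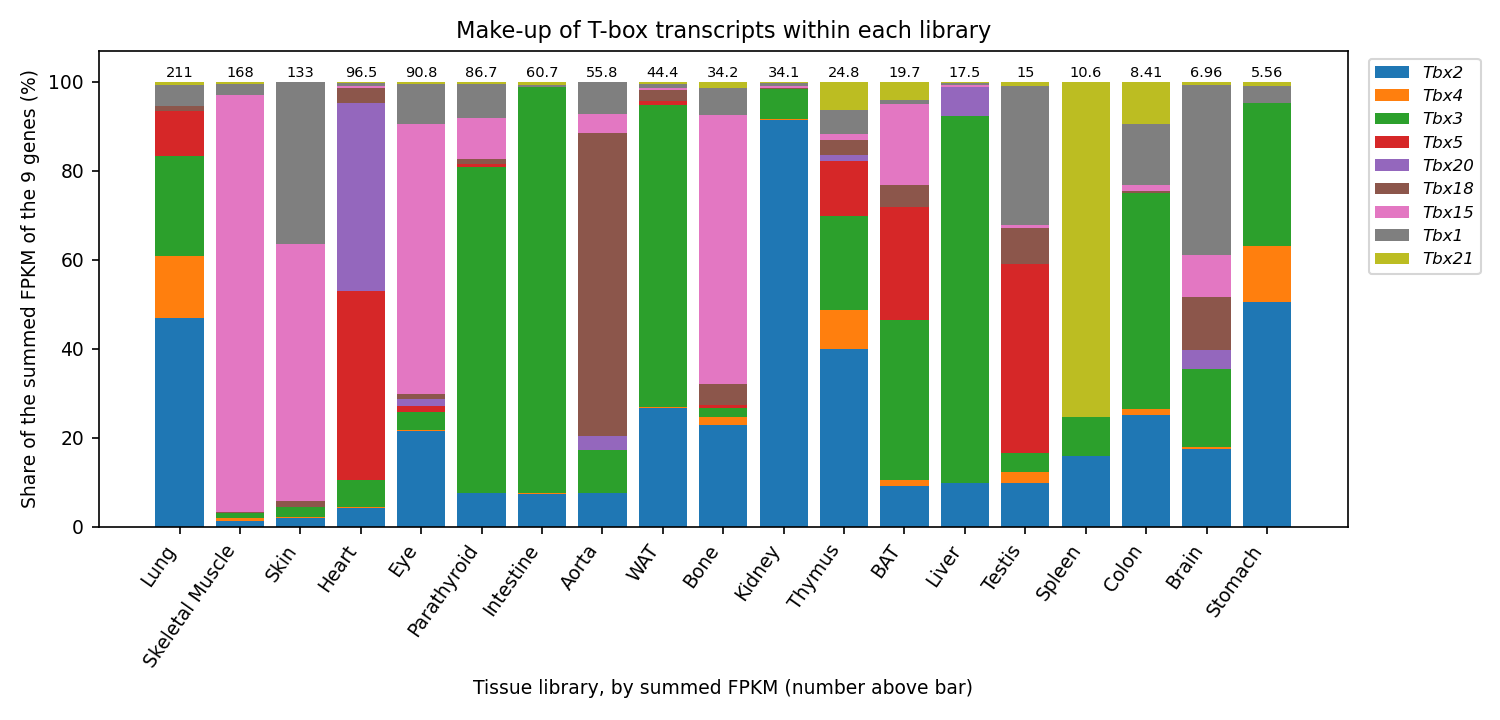
Share (y axis, %) of each T-box gene in the summed FPKM of the 9 genes within each of 19 libraries, ordered by that sum, which is printed above each bar. A single gene gives over 90% in skeletal muscle (Tbx15), intestine (Tbx3) and kidney (Tbx2), whereas lung and heart are divided among several.

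Within a library these shares do not depend on library scaling, but they do depend on the length used for each gene. That length was 1517 bases for Tbx15, 3136 for Tbx3 and 3626 for Tbx2, while the deposited gene lengths are 3747, 6624 and 3626. Shares on the deposited lengths were not computed. Tbx15 made up 93.7% of the T-box level in skeletal muscle, 60.8% in eye and 60.3% in bone. Tbx18 gave 68.0% in aorta, Tbx3 73.3% in parathyroid and 67.9% in WAT, and Tbx21 75.3% in spleen. The summed level does depend on library scaling: stomach (5.56 FPKM) was below brain (6.96), but with size factors brain (5.93) was below stomach (7.06), and likewise with the upper quartile (5.23 and 7.60). Of the other T-box genes, 3 stayed under 1 FPKM everywhere (T, Tbr1 and Tbx10). Mga, a large and broadly expressed member, was at 4.57 to 29.9 FPKM, Tbx6 was at 6.27 FPKM in spleen and 6.23 in bone, Tbx19 at 8.08 in testis, and Tbx22 at 4.06 in parathyroid.

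Across 19 tissues, log2 levels of the linked genes Tbx2 and Tbx4 had r = 0.49, which was -0.13 without lung and thymus (n = 17). For Tbx3 and Tbx5 r was 0.20, and for the pair Tbx4 and Tbx5 it was 0.52, or 0.20 without lung and thymus. The highest Pearson value among the 36 pairs of members was r = 0.66 for Tbx1 and Tbx15 (rho = 0.64). By Spearman's rho the highest pair was Tbx5 and Tbx18 (rho = 0.75, r = 0.46). Among 17309 named protein-coding genes, the pattern most like that of Tbx15 was that of Myod1 (r = 0.97), followed by Vgll2 (0.97) and Myoz1 (0.96), genes of skeletal muscle. For Tbx20 it was Nppb (0.85), Tnni3k (0.85) and Bmp10 (0.81), and the 3 most like Tbx5 included Tecrl (0.79) and Scn10a (0.77), all named here highest in heart. Tbx18 was most like Ecm2 (0.89), Gxylt2 and Slit3, highest in aorta. Tbx21 was most like Fcrl1 (0.86), H2-Eb2 and Jak3, highest in spleen, and Tbx4 like Kcnrg (0.83), Olfr1342 and Sfta2, highest in lung. Values for the broad genes were 0.82 for Tbx2 (Slco4c1), 0.84 for Tbx3 (Zfyve21) and 0.82 for Tbx1 with Ttc9, among its 3 most alike.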

How the data were processed

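The authors deposited FPKM for 13 tissues, a group table of FPKM, raw read counts for 6 further tissues and a second FPKM table for those 6. With the aligner, counter, strand setting and build not given in the sources used here, only DESeq2 is known by name, from the submitters' processing notes, with no role. RNA was extracted with Trizol and treated with DNase, per the labels' protocols. From its values, the deposited FPKM is a gene's reads per mean annotated transcript length (GENCODE M21) and per assigned reads of the library. Whole reads recovered on this basis made up at least 99.9966% of each library total, within a tolerance of 0.002 reads. The deposited counts were put on the same formula. The authors' second FPKM table uses another length and scaling and served as an alternative. In the group table the kidney column is a mean of 3 libraries and the other columns repeat the first table. Coordinates are those of the deposited tables, whose identifiers were found in GENCODE M21 (GRCm38) for 99.9% of rows.

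Levels have exact Poisson intervals and folds exact binomial (Clopper-Pearson) intervals on reads. A gene was tested for enrichment in a tissue where it had 1 FPKM or more, and percentages of genes enriched are of those. A floor of 3 reads was set for each library. Named genes were the 9 members, the other T-box genes, neighbouring or overlapping genes, listed pathway and marker genes, and the 3 most correlated named protein-coding genes per member (Pearson's r of log2(FPKM + 0.1)). The members and lists were chosen with earlier results of these data known. Alternatives changed the pseudocount, minimum, fold, scaling, length, kidney column and tissues used. Enrichment calls and read recovery were tested on simulated data. Software was scipy 1.17.1, matplotlib 3.10.9, pandas 2.3.3 and numpy 2.4.6 under Python 3.11.15. Some genes under these rules are not reported here.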

Additional observations from a re-analysis of the deposited data

How the results depend on the processing

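No paired analysis was possible because each tissue has 1 library and no result comes from a test. The count of enriched members among 13 tissues was 3, and it was 5 with a 2-fold rule. Among 19 tissues it was 5, and it was 3 with an 8-fold rule (Tbx4, Tbx18 and Tbx20). Other settings changed which genes were called: Tbx21 was lost with a pseudocount of 1, Tbx15 was added with size factors (6 calls), Tbx1 and Tbx21 were lost and Tbx15 was added with the upper quartile (4 calls), and the length of the authors' second table, which mixes 2 lengths by construction, lost Tbx1 and added Tbx5. Without the kidney library Tbx2 was called (5.04-fold), and among 13 tissues Tbx3 was called without WAT (4.41-fold) and Tbx15 without eye (19.8-fold). Leaving out eye, kidney, thymus or liver was chosen after seeing the data. The order of the highest and the next tissue turned for Tbx1 among 13 tissues (0.762-fold with size factors, 0.477-fold with the upper quartile), Tbx4 (0.695-fold, 0.573-fold) and Tbx21 (0.959-fold, 0.790-fold), and for Tbx3 among 19 (0.898-fold, 0.873-fold); the cause was not tested. These scalings moved all genes of a library together, by -0.51 (thymus) to 0.84 (skeletal muscle) and by -0.83 (eye) to 1.21 (skeletal muscle) on the log2 scale among 19 tissues. Over all settings 138 values lay within the counting interval of the main value (for counts of genes, within 1.5 times) and 26 lay outside, the 2 counts given first among them. A member's highest tissue gives no fold when it is left out. Depth limits levels of a few reads, such as Tbx4 in colon (4 reads).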

Other observations

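Some genes next to the T-box genes were distributed differently from them across tissues. The noncoding gene 1700021F13Rik, which lies between Tbx3 and Tbx5, was at 53.5 FPKM in testis and 3.07 in lung, while Tbx5 was at 6.36 FPKM in testis and 21.2 in lung. Beside Tbx2, the opposite-strand noncoding gene 2610027K06Rik was at 7.16 FPKM in parathyroid (6.06 to 8.41), 6.78 in lung (5.64 to 8.09) and 3.37 in kidney. The intervals of parathyroid and lung overlapped, so its highest tissue cannot be told. In parathyroid, lung and kidney Tbx2 was at 6.57, 98.8 and 31.2 FPKM. Over the 19 tissues log2 levels nevertheless had r = 0.71 for 1700021F13Rik and Tbx5, and r = 0.64 for 2610027K06Rik and Tbx2.

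Of 12 limb and lung mesenchyme genes, 5 were highest in lung, against 4.43% of all genes, and the list's median log2 ratio of lung to the highest other tissue was -1.13 (-2.75 over all genes). Foxf1, a lung mesenchyme gene, was highest in lung (84.1 FPKM, 8.78 in thymus), as Tbx4 was, and so was Wnt2 (11.95 FPKM, 1.84 in eye). Pitx1, which acts upstream of Tbx4 in the mouse hindlimb, was highest in eye (45.2 FPKM). Hey2, from the list of cardiac transcription factors and not among these 12, was enriched in aorta (37.6 FPKM, 3.46 in eye).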
